A study of Mus musculus with 74 samples.

Results

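Receptors for neurotrophic factors were followed in the L4 dorsal root ganglion (DRG), the ganglion that holds the cell bodies of sensory neurons of the leg. The injury was to the peripheral branch of these neurons or, in the spinal cord, to the central branch. By the paper, the thoracic spinal injury directly injures only the DRG neurons that ascend the cord. The 9 genes were Ntrk2, Ntrk3, Ngfr, Ret, Gfra1, Gfra2, Gfra3, Igf1r and Sort1. They were taken by name from the 53379 genes counted in each library, and all 9 passed the filter on low counts in every fit. Whole L4 DRG came from female wild type C57BL/6 mice aged 10 to 12 weeks, 4 uninjured and 4 at 1d after spinal cord injury (SCI), a T9/10 dorsal hemisection that cuts the dorsal column axons, with 1 library per mouse. Sorted neurons came from 22 female Thy1YFP16 mice aged 10 to 20 weeks, in which the Thy1 promoter drives YFP in a part of the DRG neurons. Their L4 DRG were dissociated with papain and collagenase, YFP+ cells were sorted by FACS, and 3 wells of about 100 cells were sequenced per mouse as technical replicates. There were 6 naive mice, and after sciatic nerve injury by crush (SNI) or after SCI there were 4 mice for each injury and time, at 1d and at 3d. The YFP transgene was carried by the naive mice too. The labels divide the sorted mice into a FACS and a FACS2018 set, each of which held mice of all 5 groups.

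Neurotrophic factors reach sensory neurons through a few receptor families. The Trk receptors are tyrosine kinases, of which TrkB (Ntrk2) binds BDNF and TrkC (Ntrk3) binds NT-3, the factor on which proprioceptive neurons depend during development. The p75 receptor (Ngfr) binds all neurotrophins and their uncleaved precursors, the latter together with sortilin (Sort1), a sorting receptor. Ret is the tyrosine kinase shared by the GDNF family, and it signals with a membrane-anchored co-receptor that gives it its ligand: Gfra1 for GDNF, Gfra2 for neurturin and Gfra3 for artemin. Igf1r is the tyrosine kinase receptor of the insulin-like growth factors. In the DRG, these receptors divide neurons by class, with Ntrk3 in large proprioceptive and mechanosensory neurons and Gfra3 in peptidergic nociceptors.

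Whole DRG libraries held 21959030 to 44493319 reads on genes, and the summed wells of a sorted mouse held 30518187 to 83599972. In 20 of the 66 wells, at least 2% of reads lay on 9 glial genes, among them Apoe and Fabp7 (3.36 to 15.1%, against 0.173 to 1.34% in the other 46). The share of 4 neuronal genes (Nefh, Nefm, Nefl and Snap25) had a median of 0.0279% in these glia-rich wells and 1.72% in the others, called neuron-rich here. Glia-rich wells came from 14 mice, with 6 such wells in naive mice, 3 in each injured group at 1d and 4 in each at 3d. The third mouse of SNI 3d and the third of SCI 3d had no other wells. The tests on sorted neurons were therefore run on all wells of 22 mice and on the neuron-rich wells of 20 mice. Atf3, a transcription factor induced by axon injury, was higher in whole DRG after SCI by 2.39 ± 0.27 on the log2 scale (SE, edgeR adjusted p = 0.00431). In sorted neurons it was higher after SNI by 3.81 ± 0.66 at 1d (adjusted p = 0.0336) and 3.09 ± 0.64 at 3d (adjusted p = 0.0772). After SCI, none of the axon injury genes Atf3, Sprr1a and Gal passed in sorted neurons, at either time or in either set of wells. Their median difference over all wells was -3.11 at 1d (1 of 3 higher) and 1.31 at 3d (2 of 3 higher). Over all wells, Atf3 was at 92.2, 63.4, 168 and 314 CPM (read counts scaled to library size) at SCI 1d. It was at 317, 32.2, 168 and 178 CPM at SCI 3d, and the naive mice, at 14.2 to 225 CPM, overlapped both groups. The paper reports Atf3 as increased in these neurons at both times after SCI, with DESeq2 and after outlier samples were removed. The tests here used edgeR and removed no sample as an outlier. Receptor results for SCI in sorted neurons thus come from tests in which Atf3 did not pass either.

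The promoters of Gfra1 and Igf1r are shown because these genes passed the test in neuron-rich wells at both times after SNI and in opposite directions, as described further on. Each sequence holds the 250 bases before the RefSeq start (GRCm38.p6), 5′ to 3′ on the strand of the gene, with capitals on matches to the GC box (GGGCGG) and the E-box (CANNTG) on either strand. Gfra1 lies on the minus strand of chromosome 19 (chr19:58455399-58455648) and Igf1r on the plus strand of chromosome 7 (chr7:67952007-67952256). The starts differ in the GENCODE annotation, which has the Gfra1 start at 58455909 and the Igf1r start at 67952827. By GENCODE the Gfra1 window thus lies inside the gene, and the Igf1r window does not reach the start.
Gfra1: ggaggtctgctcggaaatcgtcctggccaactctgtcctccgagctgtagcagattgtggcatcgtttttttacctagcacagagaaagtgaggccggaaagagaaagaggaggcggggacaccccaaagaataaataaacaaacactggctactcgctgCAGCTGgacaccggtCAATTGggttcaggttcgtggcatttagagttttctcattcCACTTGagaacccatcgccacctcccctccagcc
Igf1r: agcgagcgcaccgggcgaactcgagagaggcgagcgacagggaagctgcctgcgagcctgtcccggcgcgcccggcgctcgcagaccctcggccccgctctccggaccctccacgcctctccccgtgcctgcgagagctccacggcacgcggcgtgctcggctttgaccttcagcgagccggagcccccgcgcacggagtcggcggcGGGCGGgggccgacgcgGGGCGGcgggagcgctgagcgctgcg
The Gfra1 sequence had a GC content of 52.4% with 10 CpG, equal to the median of all promoters (52.4%), whereas the Igf1r sequence had a GC content of 77.6% with 42 CpG. Gfra1 held 3 E-boxes and no GC box, and Igf1r held 2 GC boxes and no E-box. Of 32851 promoter sequences of this length, 66.2% held an E-box and 32.7% a GC box. Promoters of Ntrk2 (GC content 62.8%, 1 E-box) and Ngfr (70.4%, 4 GC boxes and 2 E-boxes) were also in the table, 4 of the 9 members in all. None of these 4 held the AP-1 site TGANTCA, the cyclic AMP response element TGACGTCA or the STAT site TTCNNNGAA, which occurred in 6.75%, 1.55% and 7.02% of all promoters.

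In uninjured whole DRG, the median levels per length of exon ran from Ngfr, at 184 normalised CPM (read counts scaled to library size) per kb, over Ret at 91.2, Gfra2 at 38.9, Gfra1 at 31.6, Gfra3 at 27.5, Ntrk2 at 13.2, Sort1 at 10.9 and Ntrk3 at 8.96 to Igf1r at 4.14. Ngfr and Ret lay above all other members in each of the 4 mice. The ranges of Gfra2 and Gfra1 overlapped, as did those of Gfra1 and Gfra3, so the order of these co-receptors was not resolved. The places of Ntrk2, Sort1 and Ntrk3 depended on the length used, since with the longest protein-coding transcript in place of all exons Ntrk2 rose to 29.2 CPM per kb, above Gfra3, and Ntrk3 to 13.7, above Sort1 at 12.1. In naive sorted neurons the order by median was Ngfr at 34.7 CPM per kb, Gfra1 at 10.96, Ret at 9.63, Ntrk3 at 4.74, Sort1 at 3.29, Igf1r at 1.73, Ntrk2 at 0.999, Gfra2 at 0.0184 and Gfra3 at 0.00716, and the ranges of every pair of neighbours overlapped. In the neuron-rich wells of these mice Ngfr was at 50.1 CPM per kb, Ret at 10.9, Gfra1 at 6.31 and Ntrk3 at 6.28, followed by Sort1, Igf1r, Ntrk2, Gfra2 and Gfra3 at 2.08 or less, again with overlap between all neighbours. CPM in whole DRG and in sorted neurons were normalised separately.

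**Figure D1:**
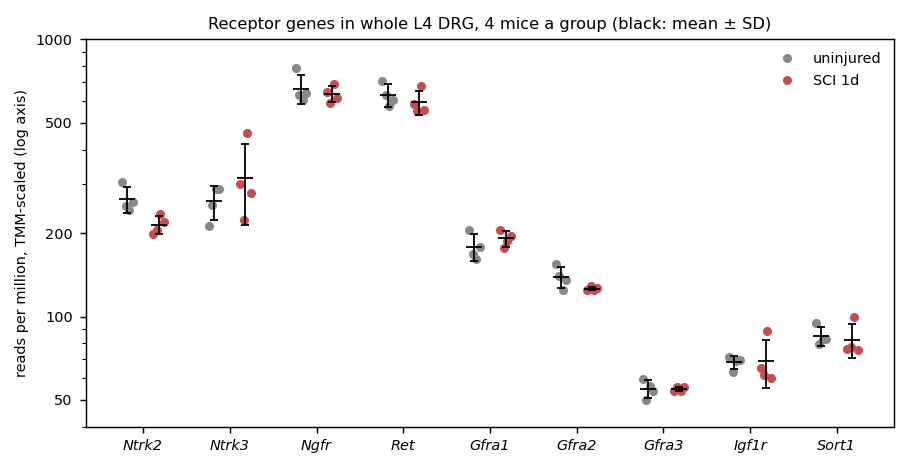
Normalised CPM of the 9 receptor genes in whole L4 DRG (vertical axis, log scale) for the 4 uninjured and 4 SCI 1d mice, 1 point per mouse. The points of the groups overlap for every gene except Ntrk2, at 243 to 306 CPM in uninjured and 199 to 234 CPM in SCI mice.

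Naive sorted neurons were compared with uninjured whole DRG to ask which receptors the sort kept. All 9 members were lower in the sorted neurons, and 7 of 9 passed the exact permutation test (two-sided, 210 assignments of 6 naive and 4 uninjured mice, adjusted p under 0.1). The background was high, since 54.0% of 14459 genes passed and 42.6% passed as lower, and the median difference over all genes was -1.03 in log2(CPM + 1), with each library scaled to its own total. Gfra2, at 126 to 150 CPM in whole DRG and at a median of 0.0612 CPM in naive neurons, differed by -6.08 (lower in 6 of 6 naive mice, exact permutation p = 0.00476, the smallest possible, adjusted p = 0.0191). The difference was -4.42 for Gfra3 (adjusted p = 0.0896), -3.96 for Ret (0.0378), -3.67 for Ntrk2 (0.0449), -2.78 for Ngfr (0.0378), -2.58 for Gfra1 (0.0625) and -1.15 for Igf1r (0.0191). Sort1 differed by -2.02 and Ntrk3 by -1.86 without passing the test (exact permutation adjusted p = 0.118 and 0.24). For Ntrk3, the naive median of 153 CPM lay below the whole DRG range of 206 to 292 CPM, with the highest naive mouse at 241 CPM inside it. Without the fifth naive mouse, at 0.683 CPM, the difference in Ntrk3 was -0.78 and passed (adjusted p = 0.0923), and that in Gfra1 was -1.62. Sort1 passed without the sixth naive mouse (-2.48, adjusted p = 0.0467). Leaving out any 1 of the uninjured mice left 3 members past the test, Ret, Gfra2 and Igf1r. In neuron-rich wells 8 of 9 members passed, all lower, beside 58.7% of all genes and 46.1% as lower. Sort1 was among them (-2.56, exact permutation adjusted p = 0.0713) and Ntrk3 was not (-1.58, adjusted p = 0.488), although without the fifth naive mouse as well Ntrk3 was at -0.39 and passed (adjusted p = 0.0666). With TMM scaling over the 10 libraries, which moved the median difference over all genes to -0.25, only Ret (-3.16) and Gfra2 (-5.49) passed. The libraries came from different kits, and the mice differed in line and age range. Only the sorted cells were dissociated with enzymes, so kit, mouse line, age, dissociation and sort cannot be told apart.

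Within the sorted mice, members divided by well. Ntrk3 had a median of 252 CPM in the 46 neuron-rich wells and 1.01 CPM in the 20 glia-rich wells, Ret 130.1 against 0.968 and Ngfr 114 against 0.992. In the 12 mice with both kinds of well, Ngfr was higher in the neuron-rich wells in 12, and Ntrk3 and Ret each in 11. Gfra1 was at 57.8 against 7.92 CPM but was higher in the neuron-rich wells in 6 of the 12 mice, and it reached 411 CPM in a glia-rich well. Ntrk2 (23.5 against 64.4 CPM, with a glia-rich well at 1130 CPM), Igf1r (24.9 against 29.1) and Sort1 (14.6 against 32.2) had the higher median in the glia-rich wells. Sort1 was higher in the glia-rich wells in 9 of the 12 mice, Igf1r in 7 and Ntrk2 in 6. The neuron-rich wells held 75.8% of all reads, and they held 97.4% of the Ntrk3 reads, 98.9% of Ngfr, 95.9% of Ret and 89.3% of Gfra1. They held 65.1% of the Igf1r reads, 39.2% of Sort1 and 38.0% of Ntrk2.

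Gfra2 and Gfra3, the co-receptors for neurturin and artemin, were present in few wells. Gfra2 reached 10 CPM in 9 of 46 neuron-rich and 2 of 20 glia-rich wells, and Gfra3 in 11 of 46 and 0 of 20. A single well held over 90% of the summed CPM of a mouse's wells for Gfra2 in 15 of the 20 mice with any reads, and for Gfra3 in 9 of 15. The lowest share of the top well was 52.4% for Gfra2 and 59.3% for Gfra3. In most mice the value of these genes was thus set mainly by 1 well of about 100 cells. The presence of a few cells cannot be told apart from a level per cell. In the 9 cases of 0 reads per mouse for Gfra2 or Gfra3, a count of 0 allows up to 0.0476 to 0.078 CPM (3 reads, for counting error only). The well with the most Gfra3, at 655 CPM in the fifth naive mouse, had 3.68% of its reads on 5 nociceptor genes (Scn10a, Calca, P2rx3, Mrgprd and Tac1), against a median of 0.0263% over the neuron-rich wells. That naive mouse had 0.982 CPM of Ntrk3 and 0.0503 CPM of Gfra1, where the other naive mice had 75.6 to 220.2 and 24.2 to 88.5 CPM.

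**Figure D2:**
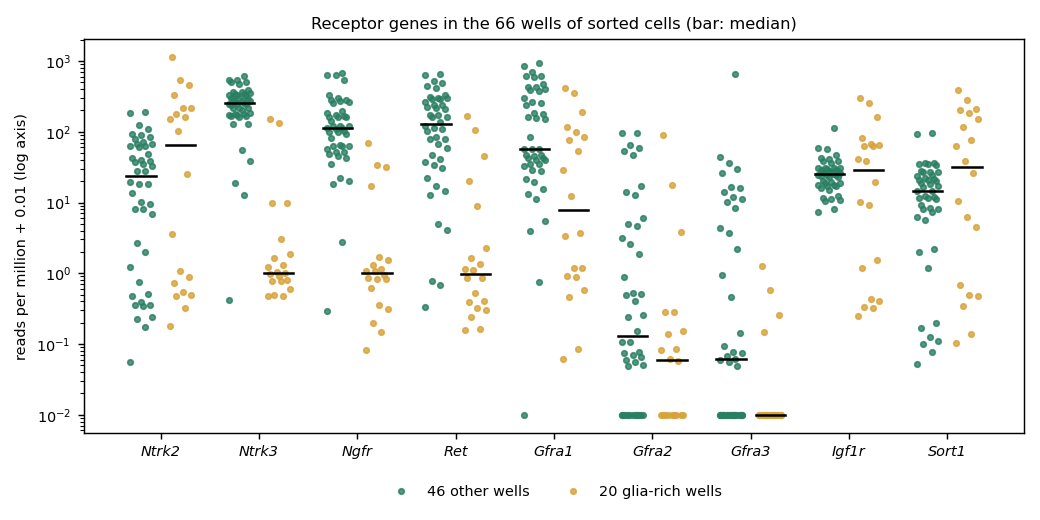
CPM + 0.01 of the 9 receptor genes in each of the 66 sorted wells (log axis), with the 46 neuron-rich and the 20 glia-rich wells side by side. Ntrk3, Ngfr and Ret are high in nearly all neuron-rich wells and at a median near 1 CPM in glia-rich wells, whereas Ntrk2, Igf1r and Sort1 reach their highest values in glia-rich wells and Gfra2 and Gfra3 are near 0 in most wells.

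After SCI, no member passed the test in whole DRG at 1d. Whole DRG also holds non-neuronal cells and neurons that by the paper are not directly injured by SCI. A change confined to the injured neurons would be diluted there. Over all genes, 408 of 17616 passed (2.32%), and 1 of 9 members had an unadjusted p under 0.05, against 14.6% of all genes. That member was Ntrk2, at 306, 251, 243 and 259.6 CPM in uninjured mice and 199, 205, 234 and 219.5 CPM after SCI. All 4 SCI mice lay below all 4 uninjured mice, as was the case for 6.09% of genes. The difference was -0.30 ± 0.09 on the log2 scale (SE, edgeR p = 0.00476, adjusted p = 0.137), and DESeq2 called it (adjusted p = 0.0518), as did edgeR without the third SCI mouse (adjusted p = 0.0871). Ntrk3 was at 223 to 461 CPM after SCI and 212 to 289 CPM in uninjured mice, a difference of 0.28 ± 0.19 with 1 SCI mouse at 461 (adjusted p = 0.55). For the other 7 members, from Gfra2 (-0.14 ± 0.07, adjusted p = 0.412) to Gfra1 (0.10 ± 0.08, adjusted p = 0.627), the SE was 0.07 to 0.12 and the groups overlapped. The median over the 9 members was -0.04, beside 0.01 over all genes. The share of 5 red blood cell genes was 0.00133 to 0.00208% in uninjured and 0.00206 to 0.009% in SCI libraries, and with it as a covariate the difference in Ntrk2 was -0.29 ± 0.15 (adjusted p = 0.72). Its part in the result was not tested further. A change in the number of cells of a type and a change in RNA per cell cannot be told apart in whole DRG or in pools of cells.

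Gfra1, the GDNF co-receptor, was high in sorted neurons after SNI. Over all wells it ranged from 0.0503 to 88.5 CPM (median 60.0) in the 6 naive mice. It was at 272, 289.7, 513 and 289 CPM in the 4 SNI 1d mice, all above every naive mouse, as was the case for 1.30% of genes. At 3d after SNI it was at 583, 298, 1.504 and 521 CPM, where the mouse at 1.504 CPM was the one with glia-rich wells only. After SCI it was at 41.0, 27.8, 47.7 and 71.7 CPM at 1d and at 84.6, 68.0, 14.6 and 208 CPM at 3d, overlapping the naive mice at both times. Over all wells the difference from naive was 3.93 ± 1.02 on the log2 scale at SNI 1d (edgeR adjusted p = 0.111) and 3.51 ± 1.09 at SNI 3d (adjusted p = 0.191), and neither passed. Without the fifth naive mouse, at 0.0503 CPM, these were 2.35 ± 0.54 (adjusted p = 0.115) and 1.08 ± 0.53 (adjusted p = 0.314). With 1 mouse left out, Gfra1 passed at 1d in 8 of 22 fits, each without an SCI or an SNI 3d mouse. At 3d it passed in 1, the fit without the mouse that had glia-rich wells only (4.13 ± 0.69, adjusted p = 0.0244). After SCI the differences were 1.02 ± 0.91 at 1d and 1.96 ± 0.94 at 3d. Here 161 of 23507 genes passed at 1d (0.685%) and 166 at 3d (0.706%), and no member did. After SCI, 4 genes passed at 1d (0.0170%) and 0 at 3d, again with no member. Within the FACS set both SNI 1d mice (272 and 289.7) lay above the naive mice (24.2 to 88.5), and within the FACS2018 set likewise (513 and 289 against 0.0503 and 68.0).

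**Figure D3:**
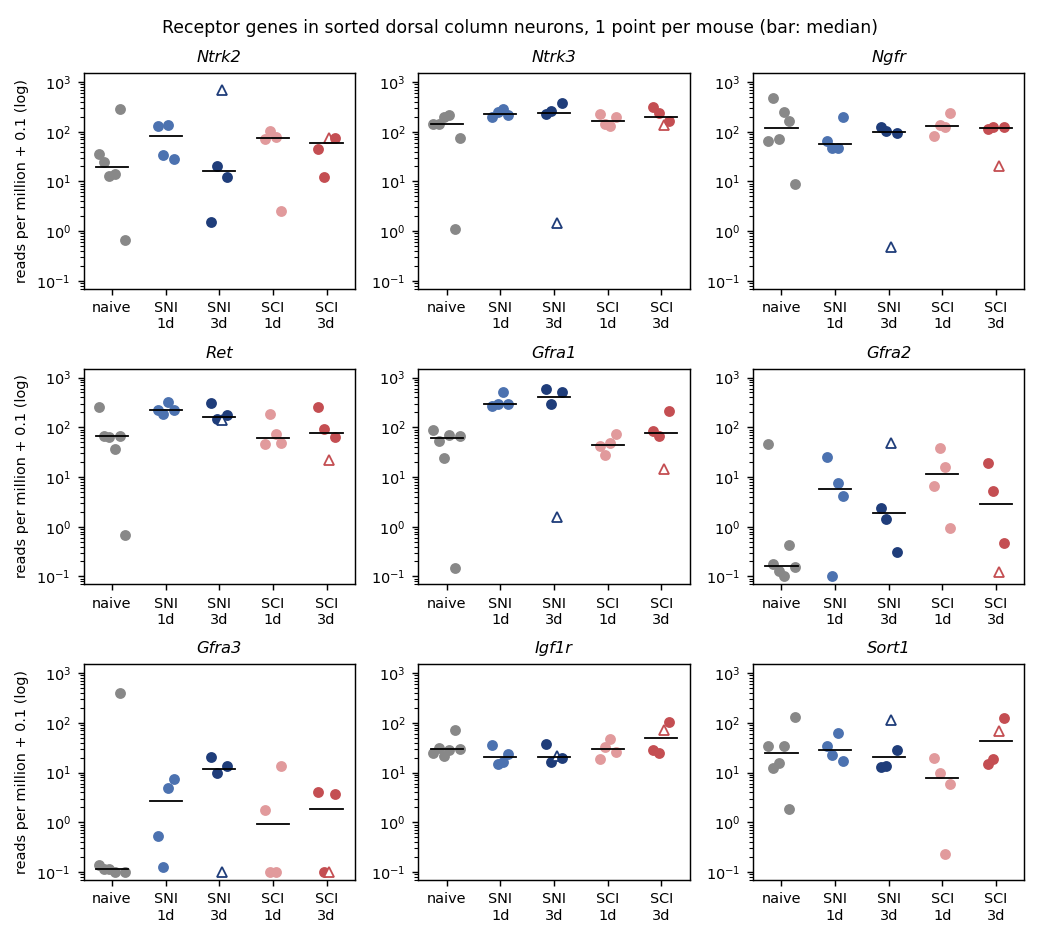
Normalised CPM of the 9 receptor genes in sorted neurons, all wells of a mouse summed, plotted as CPM + 0.1 on a log axis with 1 point per mouse and groups along the horizontal axis. Gfra1 is at 272 to 513 CPM in the 4 SNI 1d mice and at most 88.5 CPM in naive mice, and the open triangles mark the SNI 3d and SCI 3d mouse with glia-rich wells only.

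In neuron-rich wells, the difference in Gfra1 passed the test at both times after SNI. It ranged from 0 to 98.8 CPM (median 34.5) in naive mice, and was at 336, 375, 562 and 329 CPM at SNI 1d and at 709.6, 321 and 522 CPM at SNI 3d, with no overlap with naive mice (1.81% of genes were non-overlapping and higher at 1d, 3.75% at 3d). Gfra1 rose by 4.21 ± 0.75 at 1d (edgeR adjusted p = 0.00943) and by 4.43 ± 0.76 at 3d (adjusted p = 0.0108), which is 3.81 and 4.04 above the median of all genes (0.40 and 0.39). It passed in all 20 fits that left out 1 mouse at each time, with differences of 3.22 to 4.68 and 3.56 to 4.91 and the lowest without the fifth naive mouse. After SCI it was at 35.8, 33.5, 28.2 and 76.4 CPM at 1d (1.12 ± 0.71, adjusted p = 0.437) and at 87.3, 72.8 and 147 CPM at 3d (2.22 ± 0.75, adjusted p = 0.235). The calls rest on 2 covariates estimated from residuals (RUVr factors). Without these, in the same wells, the differences at SNI were 3.26 ± 0.86 (adjusted p = 0.187) and 3.63 ± 0.90 (adjusted p = 0.200), and 39 and 14 genes passed instead of 1848 (8.17%) and 1712 (7.57%). An antisense gene, Gm16277, overlaps Gfra1 on the other strand, and the strand setting of the counting is not given in the sources used here.

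In neuron-rich wells, 5 of 9 members passed at SNI 1d and 5 of 9 at SNI 3d, 4 higher and 1 lower each time, beside 7.17% of all genes higher and 1.00% lower at 1d and 6.37% and 1.19% at 3d. Gfra1, Ntrk3 and Ret rose and Igf1r fell at both times, Ntrk2 rose at 1d, and Gfra3 passed as higher at 3d. The naive values of the fifth and sixth mice here each rest on a single well of about 100 cells, since their other wells were glia-rich. That well of the fifth mouse had 3.68% of its reads on nociceptor genes and 0.0693% on large-fibre neuron genes. After SCI no member passed, beside 49 genes at 1d (0.217%) and 0 at 3d, where 3299 genes had an unadjusted edgeR p under 0.05 and DESeq2 over all wells called 1139. With 1 mouse left out, Ntrk2 passed at SCI 1d without the fourth SCI mouse (3.29 ± 0.72, edgeR adjusted p = 0.0900) and Ntrk3 without the sixth naive mouse (1.43 ± 0.31, adjusted p = 0.0647). At SCI 3d, 5 of 9 members had an unadjusted p under 0.05, against 14.6% of all genes. Shares of the glial, neuronal, nociceptor and large-fibre lists overlapped between naive and SNI mice, with glial genes at 0.305 to 1.33% in naive, 0.321 to 1.13% at SNI 1d and 0.23 to 0.717% at SNI 3d. Nociceptor genes were at 0.0039 to 3.68% in naive mice, 0.00821 to 0.909% at SNI 1d and 0.00994 to 0.0341% at SNI 3d, and large-fibre neuron genes (Nefh, Pvalb, Ldhb, Runx3 and Spp1) at 0.0693 to 0.977%, 0.342 to 0.703% and 0.282 to 0.499%. The share of 6 macrophage genes (Csf1r, Cd68, C1qa, C1qb, Aif1 and Cx3cr1) did not overlap at 1d, at 0 to 0.000193% in naive and 0.000201 to 0.000848% in SNI 1d mice, and it was 0.000157 to 0.00036% at SNI 3d. Each of these 6 genes was at 0 reads in 2 to 6 of the 6 naive and in 1 or 2 of the 4 SNI 1d mice. C1qa was at 0 in all naive mice and at most at 0.0654 CPM at SNI 1d, and Cx3cr1 reached 3.27 CPM there against 0.0501 in naive mice. The part of these shares in the results was not tested.

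**Figure D4:**
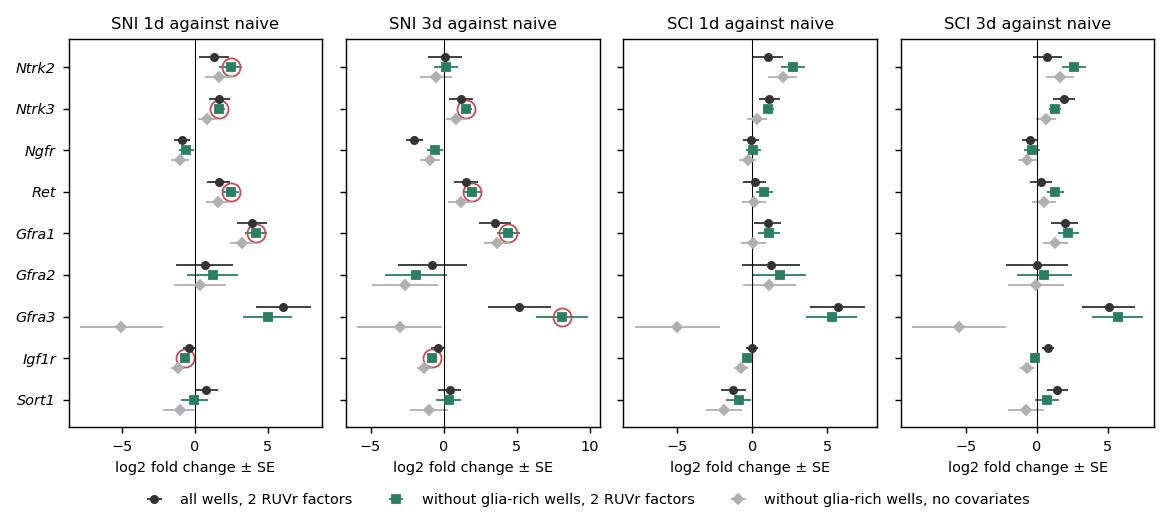
Log2 difference from naive for each receptor gene after both injuries and at both times, with bars of 1 SE, for all wells, neuron-rich wells, and neuron-rich wells without covariates. Red circles mark adjusted p under 0.1, and they appear for the neuron-rich wells with covariates after SNI only, with Gfra1 at 4.21 and 4.43.

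Ret, the signalling partner of Gfra1, had in neuron-rich wells 0.433 to 309.7 CPM (median 73.7) in naive mice, 285, 240.1, 455 and 250.3 CPM at SNI 1d, and 379, 156 and 178 CPM at SNI 3d. The highest naive mouse lay inside the SNI range. Ret rose by 2.47 ± 0.56 at 1d (edgeR adjusted p = 0.0257) and by 1.93 ± 0.59 at 3d (adjusted p = 0.0841). The sixth naive mouse, with 0.433 CPM, carried much of this: without it the difference was 1.37 at 1d (adjusted p = 0.175) and 1.00 at 3d (adjusted p = 0.357). At 3d the call was lost in 7 of the 20 fits that left out 1 mouse. After SCI, Ret was at 59.8, 238, 102 and 50.9 CPM at 1d (0.79 ± 0.56) and at 264, 97.9 and 86.3 CPM at 3d (1.29 ± 0.60, adjusted p = 0.334). Over all wells Ret did not pass at SNI 1d (1.62 ± 0.78, adjusted p = 0.335) or 3d (1.52 ± 0.82, adjusted p = 0.444), and after SCI it differed by 0.16 ± 0.79 and 0.27 ± 0.79.

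Gfra2, the neurturin co-receptor, passed in no comparison between naive and injured mice. In neuron-rich wells it was at 0 to 54.4 CPM (median 0.0896) in naive mice, 32.6, 0, 8.95 and 4.71 CPM at SNI 1d, 2.83, 1.43 and 0.204 CPM at SNI 3d, 8.23, 49.5, 22.4 and 0.914 CPM at SCI 1d, and 20.0, 5.61 and 0.454 CPM at SCI 3d. The SE of its log2 differences from naive ran from 1.76 to 2.13, so a change of several fold could go undetected. The differences ran from -1.91 ± 2.13 at SNI 3d to 1.84 ± 1.77 at SCI 1d, and over all wells from -0.78 ± 2.35 to 1.24 ± 1.95. Without the first naive mouse, at 54.4 CPM, the difference at SNI 1d was 7.28 and passed (edgeR adjusted p = 0.0534). Gfra3, the artemin co-receptor, was at 798 CPM in the fifth naive mouse and at no more than 0.0442 CPM in the other 5. It was at 0.527, 0.0323, 6.996 and 8.31 CPM at SNI 1d and at 25.1, 10.4 and 13.7 CPM at SNI 3d. It was at 2.11, 0, 0 and 14.3 CPM at SCI 1d and at 4.12, 0 and 4.75 CPM at SCI 3d. All 3 SNI 3d mice thus lay above 5 naive mice and below the fifth naive mouse. The fit gave 8.09 ± 1.78 at SNI 3d (edgeR adjusted p = 0.0278), which passed, and 4.99 ± 1.70 at SNI 1d (adjusted p = 0.105), 5.30 ± 1.72 at SCI 1d (adjusted p = 0.163) and 5.70 ± 1.79 at SCI 3d (adjusted p = 0.233), which did not. At SNI 1d it passed in 6 of the 20 fits that left out 1 mouse. Over all wells the differences were 5.09 to 6.08 and none passed, except at SNI 3d without the mouse that had glia-rich wells only (9.68, adjusted p = 0.0665). In all 4 comparisons the direction turned in neuron-rich wells without covariates (-3.02 ± 2.88 at SNI 3d, adjusted p = 0.735). At SNI 3d, without the fifth naive mouse the fit with covariates gave 9.54 ± 2.25 (adjusted p = 0.0347), against naive mice at 0 to 2 reads each, so its size depends on the prior count.

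**Figure D5:**
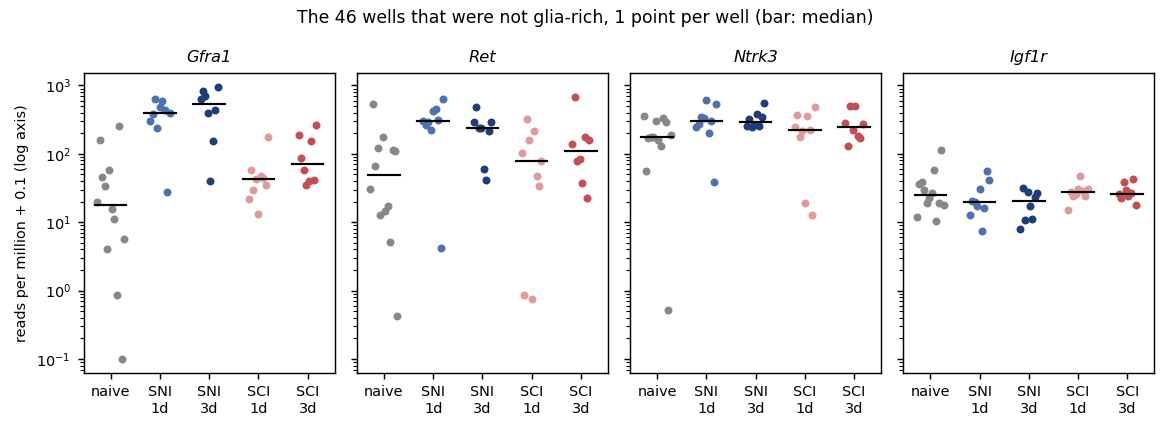
CPM + 0.1 of Gfra1, Ret, Ntrk3 and Igf1r in each of the 46 neuron-rich wells by group (log axis), 1 point per well. The median of Gfra1 is 17.5 CPM in 12 naive wells. It is 389 CPM in 9 wells at 1d and 529.6 CPM in 8 wells at 3d after SNI, against 42.7 and 71.5 CPM after SCI, while Igf1r has medians of 19.7 to 27.8 CPM in all groups.

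Ntrk3, the NT-3 receptor, had in neuron-rich wells 0.504 CPM in the fifth naive mouse and 169.5 to 249.6 CPM in the other 5. It was at 257, 324, 416 and 244 CPM at SNI 1d and at 279, 274.5 and 379.8 CPM at SNI 3d. The 3d mice lay above all naive mice, as was the case for 3.75% of genes. Ntrk3 rose by 1.68 ± 0.37 at 1d (edgeR adjusted p = 0.0223) and by 1.55 ± 0.40 at 3d (adjusted p = 0.047). Most of the size came from the fifth naive mouse, since without it the difference was 0.61 ± 0.19 at 1d (adjusted p = 0.0877) and 0.63 ± 0.20 at 3d (adjusted p = 0.104). After SCI it was at 291, 183, 182 and 207 CPM at 1d (1.08 ± 0.37, adjusted p = 0.18) and at 327, 259 and 217 CPM at 3d (1.27 ± 0.40, adjusted p = 0.233). Over all wells it did not pass (1.68 ± 0.74 at SNI 1d, 1.14 ± 0.72 at SCI 1d and 1.90 ± 0.80 at SCI 3d). With 1 mouse left out it passed there in 2 of 22 fits at SNI 1d (without the third SCI 3d or the third SNI 3d mouse) and in 1 at SNI 3d (without the third SNI 3d mouse), and at SNI 3d its direction turned without the fifth naive mouse (from 1.18 ± 0.80 to -0.85 ± 0.37, adjusted p = 0.26).

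Ntrk2, the BDNF receptor, had in neuron-rich wells 0.519 to 42.5 CPM (median 14.4) in naive mice and 78.3, 43.0, 53.9 and 32.5 CPM at SNI 1d. It passed as higher at 1d (2.46 ± 0.79, edgeR adjusted p = 0.0894), and the call was lost in 10 of the 20 fits that left out 1 mouse. At SNI 3d it was at 1.73, 21.7 and 12.3 CPM (0.15 ± 0.85 from naive), all below the 1d mice, although the test of 3d against 1d did not pass (-2.30 ± 0.99, adjusted p = 0.604, beside 2.77% of genes lower without overlap). After SCI it was at 70.4, 93.1, 108 and 2.61 CPM at 1d (2.73 ± 0.79, adjusted p = 0.152) and at 46.2, 13.3 and 97.8 CPM at 3d (2.63 ± 0.84, adjusted p = 0.233). Over all wells the differences were 1.29 ± 1.02 and 0.08 ± 1.16 after SNI and 1.05 ± 1.03 and 0.74 ± 1.03 after SCI. The highest values there, 289 CPM in the fifth naive mouse and 686 CPM in the third SNI 3d mouse, came from mice in which it stood at 0.605 CPM without the glia-rich wells, or which had no other wells.

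Ngfr, the p75 receptor, was at 8.95 to 474 CPM (median 119.6) in naive mice over all wells, at 65.0, 47.0, 47.9 and 197 CPM at SNI 1d, and at 122, 103, 0.389 and 92.8 CPM at SNI 3d. The difference was -0.87 ± 0.55 at 1d. At 3d it was -2.01 ± 0.59 (edgeR p = 0.00277, adjusted p = 0.165), and DESeq2 called it (adjusted p = 0.00813), as did edgeR without the sixth naive mouse (-2.78, adjusted p = 0.0269). It shrank to -0.59 ± 0.56 in neuron-rich wells (adjusted p = 0.584), where the mouse at 0.389 CPM has no value. After SCI, Ngfr was at 80.4, 138, 124 and 239.8 CPM at 1d (-0.06 ± 0.54) and at 114, 125, 20.1 and 125 CPM at 3d (-0.49 ± 0.57). In neuron-rich wells Ngfr differed by -0.60 ± 0.51 at SNI 1d, 0.07 ± 0.50 at SCI 1d and -0.33 ± 0.56 at SCI 3d. Sort1, the co-receptor for proneurotrophins, passed in no comparison among the sorted groups. In neuron-rich wells it was at 0.0504 to 124 CPM (median 15.7) in naive mice, 1.04 to 28.5 CPM at SNI 1d, 7.499 to 27.7 CPM at SNI 3d, 0.119 to 19.8 CPM at SCI 1d and 15.3 to 23.7 CPM at SCI 3d. The differences from naive ran from -0.90 ± 0.84 at SCI 1d to 0.72 ± 0.88 at SCI 3d, and over all wells from -1.27 ± 0.82 to 1.45 ± 0.77 at the same times. Over all wells the difference of SCI 3d from SCI 1d in Sort1 was 2.72 ± 0.91 (adjusted p = 0.453), which DESeq2 called (adjusted p = 0.0438), and it was 1.62 ± 0.94 in neuron-rich wells (adjusted p = 0.835). An antisense gene, Gm12523, overlaps Sort1.

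Igf1r, the receptor of insulin-like growth factors, was the member that passed as lower. In neuron-rich wells it was at 22.8 to 139 CPM (median 27.8) in naive mice, at 15.9, 17.6, 19.4 and 27.2 CPM at SNI 1d, and at 18.5, 17.1 and 19.5 CPM at SNI 3d. All 3 SNI 3d mice lay below all 6 naive mice, as was the case for 1.22% of genes. Igf1r fell by 0.71 ± 0.20 at 1d (edgeR adjusted p = 0.0611) and by 0.82 ± 0.23 at 3d (adjusted p = 0.0593), which is -1.11 and -1.21 relative to the median of all genes. Each call was lost in 4 of the 20 fits that left out 1 mouse, among them the one without the fifth naive mouse (-0.47 and -0.58, adjusted p = 0.225 and 0.175). After SCI it was at 19.9 to 36.1 CPM at 1d (-0.33 ± 0.20, adjusted p = 0.418) and at 25.8 to 30.5 CPM at 3d (-0.17 ± 0.22, adjusted p = 0.816). Over all wells it did not pass at SNI 1d (-0.42 ± 0.43) or 3d (-0.42 ± 0.43). After SCI it differed by -0.02 ± 0.42 at 1d and 0.80 ± 0.42 at 3d (adjusted p = 0.559), and at SCI 3d it was at 28.7, 24.1, 71.5 and 106 CPM, where the highest values came from the mice that had glia-rich wells.

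The injuries were also compared with each other, and no member passed. At 1d over all wells, Gfra1 in the SNI mice (272 to 513 CPM) lay above the SCI mice (27.8 to 71.7 CPM), a difference of 2.92 ± 1.00 (edgeR p = 0.00881, adjusted p = 0.461), and Ret lay above as well (186 to 320.4 against 46.3 to 183 CPM, 1.46 ± 0.88, adjusted p = 0.579). Groups did not overlap, with SNI higher, for 2.61% of genes. In neuron-rich wells the differences were 3.10 ± 0.80 for Gfra1 (adjusted p = 0.115) and 1.68 ± 0.62 for Ret (adjusted p = 0.285), beside 201 genes that passed (0.889%). DESeq2 called Gfra1 over all wells (2.85 ± 0.94, adjusted p = 0.0636), and leaving out 1 mouse gave 2.59 to 3.80 in neuron-rich wells, with the test passed in 3 of 20 fits. The other 7 members overlapped at 1d in both sets of wells, and their differences ran from -0.66 ± 0.55 (Ngfr) over -0.62 ± 1.87 (Gfra2), -0.39 ± 0.22 (Igf1r), -0.31 ± 1.32 (Gfra3), -0.28 ± 0.85 (Ntrk2) and 0.60 ± 0.41 (Ntrk3) to 0.85 ± 0.87 (Sort1) in neuron-rich wells. At 3d in neuron-rich wells, SNI mice had Gfra1 at 321 to 709.6 CPM and SCI mice at 72.8 to 147 CPM (2.20 ± 0.90, adjusted p = 0.669), and Igf1r at 17.1 to 19.5 against 25.8 to 30.5 CPM (-0.65 ± 0.25, adjusted p = 0.669). Gfra3 was at 10.4 to 25.1 against 0 to 4.75 CPM (2.39 ± 1.62, adjusted p = 0.725). These 3 members were without overlap, as were 12.3% of all genes with 3 mice a group. The others overlapped, from -2.48 ± 1.03 (Ntrk2) and -2.42 ± 2.27 (Gfra2) over -0.39 ± 1.00 (Sort1), -0.26 ± 0.63 (Ngfr) and 0.28 ± 0.47 (Ntrk3) to 0.64 ± 0.70 (Ret). Over all wells at 3d the differences ran from -1.52 ± 0.63 (Ngfr) to 1.55 ± 1.06 (Gfra1).

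Between 1d and 3d after SNI, where 1 gene passed over all wells (0.00425%) and 0 in neuron-rich wells (1838 at an unadjusted edgeR p under 0.05), Gfra1 differed by 0.21 ± 0.80 and Ret by -0.55 ± 0.66 in neuron-rich wells. Gfra3, at 10.4 to 25.1 CPM at 3d and 0.0323 to 8.31 CPM at 1d, did not overlap, as was the case with the later time higher for 3.37% of genes, and did not pass (3.10 ± 1.52, adjusted p = 0.604). Ntrk2 is given above, Gfra2 differed by -3.13 ± 2.27, and Ntrk3, Igf1r, Ngfr and Sort1 lay between -0.13 ± 0.44 and 0.38 ± 0.93. Over all wells no member passed, with differences down to -1.43 ± 2.49 (Gfra2). Between 1d and 3d after SCI, where 0 genes passed in either set of wells, members differed by -1.32 ± 2.09 (Gfra2) to 1.62 ± 0.94 (Sort1) in neuron-rich wells, with Gfra1 at 1.11 ± 0.80. Over all wells they differed by -1.26 ± 2.22 (Gfra2) to 2.72 ± 0.91 (Sort1).

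The other genes of these pathways were read from 4 lists of ligands (10 genes), other receptors and co-receptors (14), adaptors and signalling (24), and feedback and binding proteins (12). In whole DRG after SCI, 0 of 6 tested ligands, 0 of 14 receptors and 0 of 24 adaptors passed, and of the binding proteins Igfbp2 (-0.45 ± 0.09, edgeR adjusted p = 0.0462) and Igfbp4 (-0.52 ± 0.12, adjusted p = 0.0783), which bind insulin-like growth factors, fell. Igfbp2 was at 11.1 to 12.2 CPM in uninjured and 7.84 to 9.27 CPM in SCI mice. In sorted neurons over all wells, Dok5, an adaptor of Ret and Trk receptors, passed at SNI 1d (5.52 ± 1.26, adjusted p = 0.0702). At SNI 3d Ncam1, a cell adhesion molecule that also binds GDNF (2.83 ± 0.66, adjusted p = 0.0811), Grb2, an adaptor that links receptor kinases to Ras (1.78 ± 0.44, adjusted p = 0.0991), and Maged1, a p75-interacting protein (1.06 ± 0.22, adjusted p = 0.0772), passed. No list gene passed after SCI.

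In neuron-rich wells at SNI 1d, the list genes that rose were Bdnf, the ligand of Ntrk2 (2.96 ± 0.71, edgeR adjusted p = 0.0315), Lifr (0.96 ± 0.24), the adaptors Dok5 (6.05 ± 1.03), Grb2 (1.61 ± 0.30), Maged1 (0.79 ± 0.21) and Shc2 (0.98 ± 0.27), and Igfbp3 (4.46 ± 1.21) and Igfbp4 (6.54 ± 1.74). Dok5 was at 0 to 11.3 CPM in naive and 36.8 to 116 CPM in SNI 1d mice, without overlap, whereas Bdnf was at 0.173 to 739 and 114 to 459 CPM and overlapped. Bdnf fell to 0.75 ± 1.04 without covariates, and none of the list genes named for neuron-rich wells passed then. At SNI 3d the adaptors Grb2 (1.67 ± 0.32), Maged1 (1.10 ± 0.23), Dok5 (3.89 ± 1.01), Shc2 (0.88 ± 0.29) and Irs2 (1.43 ± 0.43), and the receptors Lifr (1.08 ± 0.26), Ncam1 (2.60 ± 0.74) and Insr (2.05 ± 0.67) rose, and the adaptor Dok4 fell by 1.77 ± 0.51. Gdnf, the ligand of Gfra1, passed at 3d (4.90 ± 1.38, adjusted p = 0.0836) at no more than 0.438 CPM in any SNI 3d mouse, too low to read a level from. The adaptor list had 4 of 24 higher at 1d and 5 higher and 1 lower at 3d, and a median of 0.60 and 0.49 beside 0.40 and 0.39 over all genes. Between the injuries at 1d, Grb2 (1.50 ± 0.34, adjusted p = 0.0769) and Shc2 (1.31 ± 0.30, adjusted p = 0.0778) were higher after SNI.

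Over the 66 wells, the genes whose log2(CPM + 1) followed a member most closely were sought among 10441 genes with a mean of at least 5 CPM, as a description only, since wells share mice, depth and glial content. Ntrk3 went with Etl4 (Pearson r = 0.91), Chpf and Ppm1e, Ngfr with Garnl3 (0.88), Scn9a and Fam189b, and Ret with Sox11 (0.86), Plcxd2 and Dffa. Ntrk2 went with the glial genes Apoe (0.53), Fabp7 and Gja1. Gfra3 went with Trpv1 (0.78), the heat and capsaicin channel of nociceptors, Tac1 and Stac, and Gfra2 with Opn3 (0.63), Baiap2l1 and Calb2. Gfra1 went with Adam8 (0.72), Cltb and Mapk6, Igf1r with Srsf1 (0.66), Cltb and Surf2, and Sort1 with Dleu2 (0.54), Prpf39 and Jun. Within the 46 neuron-rich wells the value for Gfra1 and Adam8 was 0.83 and for Gfra3 and Trpv1 0.75, whereas that for Igf1r and Srsf1 was 0.19. Between members in these 46 wells, Ret and Gfra1 were at 0.67, Ngfr and Igf1r at 0.58, Ntrk3 and Sort1 at 0.55 and Ntrk3 and Gfra1 at 0.51, and Ntrk3 and Ngfr, at 0.67 over all wells, were at -0.27.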

How the data were processed

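Read counts per gene were deposited by the authors for 74 libraries, 8 of whole DRG and 66 wells of sorted neurons. Per the labels and the study's methods, reads were trimmed with Cutadapt and PRINSEQ, aligned to GRCm38/mm10 with STAR 2.5.3a and counted with HTSeq 0.6.1, and the strand setting is not given in the sources used here. The 5 last lines of each file name no gene (33.1 to 66.9% of its reads) and were left out. The authors removed outliers, which the labels do not name, so all libraries were used. Other deposited tables held 123 per-sample columns that matched no sample here, and columns of the authors' fold changes and p-values. None of these were used, and whole DRG after SNI is not analysed here.

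Wells were summed per mouse, since they are technical replicates, and the mouse was the replicate. The filter kept genes whose mean count was 10 or more (whole DRG) or that had 20 reads or more in 1 mouse (sorted neurons), and these were fitted with edgeR 4.0.16 (quasi-likelihood test, TMM normalisation, R 4.3.3), with 2 RUVr factors from centred residuals as covariates in the sorted neurons. P-values were adjusted by Benjamini-Hochberg over all genes, and adjusted p under 0.1 counted as passed. The SE given with edgeR differences was computed back from the test, as the size of the log2 difference over the square root of its F statistic. For genes at few reads it depends on the prior count, as the difference does. The biological coefficient of variation was 0.1326 in whole DRG and 1.196 in sorted neurons. DESeq2 1.42.0 was an alternative. Naive neurons and uninjured DRG were compared by an exact permutation test on log2(CPM + 1), with CPM from raw totals, for genes with a mean of at least 1 CPM. Wells with at least 2% of reads on glial genes were called glia-rich, a rule that was known from earlier results of these data. The levels of some of these marker genes are not reported here. The count scripts were tested on simulated data. Intervals and floors cover counting error only.

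The 9 members and the gene lists were chosen with earlier results of these data known. The rule for named genes was all members in each comparison, some of them given by the range of their differences, then the list genes that passed or otherwise the 3 with the smallest p, which are not printed, and for each member the 3 genes with the highest correlation over wells. Promoter sequences and their coordinates were taken from RefSeq (GRCm38.p6), and gene positions and exon lengths from GENCODE.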

Additional observations from a re-analysis of the deposited data

Results flagged for a closer look

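Among 63 sets of values, 1 for each member in each group, 14 held a mouse that stood apart from the rest by Dixon's criterion. Its rate of about 1 of 20 by chance holds for normally distributed values. The CPM here were untransformed and skewed, some at 0, and the sets share mice, so no excess over chance can be read from the 14. Values are normalised CPM over all wells, and no explanation was tested. The fifth naive mouse had 289 CPM of Ntrk2 (others 0.572 to 36.1), 399 CPM of Gfra3 (others 0 to 0.0372) and 69.9 CPM of Igf1r (others 21.2 to 30.4). The first naive mouse had 261 CPM of Ret (others 0.572 to 67.5) and 45.8 CPM of Gfra2 (others 0 to 0.327), and the sixth had 131 CPM of Sort1 (others 1.76 to 34.3). The third SNI 3d mouse, with glia-rich wells only, had 686 CPM of Ntrk2 (others 1.46 to 20.1), 48.7 CPM of Gfra2 (others 0.203 to 2.33) and 113 CPM of Sort1 (others 12.7 to 27.6). The third SCI 3d mouse, also with glia-rich wells only, had 20.1 CPM of Ngfr (others 114 to 125). At SNI 1d, the third mouse had 513 CPM of Gfra1 (others 272 to 289.7) and the fourth had 197 CPM of Ngfr (others 47.0 to 65.0). The fourth SCI 1d mouse had 13.4 CPM of Gfra3 (others 0 to 1.63). In whole DRG, the third SCI mouse had 99.97 CPM of Sort1 (others 75.4 to 77.8).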

How the results depend on the processing

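Counts of genes that passed in sorted neurons depended on the covariates, the tool and the glia-rich wells, and the causes were not tested. In whole DRG after SCI, 408 genes passed, against 202 at a threshold of 0.05, 929 with DESeq2 (1 member), 127 with a replicate block, 9 with the red blood cell covariate and 104 to 640 with 1 mouse left out (0 to 1 members). At SNI 1d, 161 genes passed, against 50 at a threshold of 0.05, 1504 with DESeq2, 1 with the replicate block, 1 with uncentred factors, 10 with 1 factor, 0 without covariates, 0 with the set of the labels (FACS or FACS2018) as covariate, 13 against naive mice of the same day, 1848 without glia-rich wells, 39 without these and without covariates, and 30 to 592 with 1 mouse left out. Members that passed were 0 in the fit as reported, 1 each with DESeq2, with its size factors, with no filter and with the CPM filter, 5 without glia-rich wells and 0 to 2 with 1 mouse left out. At SNI 3d, 166 genes passed, against 7, 2203 with DESeq2, 57 with no filter, 46 with the replicate block, 2 with uncentred factors, 0 with 1 factor, 0 without covariates, 0 with the set, 9 against same-day naive mice, 1712 without glia-rich wells, 14 without these and without covariates, and 9 to 896 with 1 mouse left out. Members were 0, against 3 with DESeq2, 5 without glia-rich wells and 0 to 3 with 1 mouse left out.

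At SCI 1d, 4 genes passed, against 1170 with DESeq2, 10 with its size factors, 22 with no filter, 49 without glia-rich wells, 0 without these and without covariates, 1 with a threshold of 0.05, the CPM filter, the replicate block, uncentred factors, 1 factor, no covariates, the set or same-day naive mice, and 1 to 30 with 1 mouse left out. At SCI 3d, 0 genes passed with edgeR (2208 at an unadjusted p under 0.05), against 1139 with DESeq2, 12 with no filter, 2 against same-day naive mice and 0 to 19 with 1 mouse left out. For SNI against SCI at 1d, 0 passed (2408 unadjusted), against 1045 with DESeq2 (1 member), 3 with the CPM filter, 1 with the replicate block, 1 with uncentred factors, 2 with 1 factor, 201 without glia-rich wells and 0 to 7 with 1 mouse left out. At 3d, 0 passed (1990 unadjusted), against 938 with DESeq2 and 0 to 64. For SNI 3d against 1d, 1 passed, against 893 with DESeq2, 0 to 22 with 1 mouse left out, and 0 with a threshold of 0.05, size factors, no filter, the CPM filter, the replicate block, uncentred factors, 1 factor, no covariates, the set, or without glia-rich wells with or without covariates. For SCI 3d against 1d, 0 passed (2508 unadjusted), against 1035 with DESeq2 (1 member) and 0 to 3. Between naive neurons and whole DRG, 7802 genes and 7 members passed, against 13752 genes with no filter, 2 members with TMM scaling, and 5350 to 8739 genes and 3 to 8 members with 1 mouse left out.

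Of 2619 member values under the alternatives, 2573 kept their side of the threshold, 35 came to pass and 11 turned (a change of sign with both values over 1 SE from 0). No member passed in the fits as reported, so no call could be lost among these values. Of those that did not turn, 188 changed sign with at least 1 of the values within 1 SE of 0. Calls could be lost in neuron-rich wells with 1 mouse left out, where 30 values lost a call, 12 gained a call and 1398 kept their side. Against whole DRG, 23 lost a call, 5 gained a call and 107 kept their side. For Gfra3 the values that turned were SNI 1d without covariates (-4.40), with the set (-3.74) and without glia-rich wells and covariates (-5.07), SNI 3d without glia-rich wells and covariates (-3.02), SCI 1d without covariates (-4.14) and without both (-5.01), and SCI 3d likewise (-5.14 and -5.49). The others were Ntrk3 at SNI 3d (-0.85 to 1.69 with 1 mouse left out) and Gfra1 at SCI 1d (-0.54 to 1.36), both turned without the fifth naive mouse, and Igf1r at SCI 3d without glia-rich wells and covariates (-0.69). Mean levels at SNI 1d moved by over 1 SD for Ntrk3 (309.95 CPM) and Ret (307.5 CPM) without glia-rich wells. Of 52 pairs of same-numbered samples, 17 correlated above 0.1, and the numbers were not taken as a pairing. The median of same-numbered pairs was 0.140 (-0.041 to 0.320) in the FACS2018 set and 0.00625 in the FACS set. The correlated values were deviations from group means, and the injured groups held 2 mice per set. Other pairs of these sets therefore mirror the same-numbered pairs with the opposite sign and give no separate comparison. In whole DRG the median was -0.00937 for same-numbered pairs, against 0.0292 for other pairs. Whether same-numbered mice of the FACS2018 set belong together was not tested, and counts with a replicate block are given above. Fits without glia-rich wells and covariates, or without these wells and 1 mouse, were chosen after seeing the data. The rule for glia-rich wells, on which every fit of neuron-rich wells rests, was also known from earlier results of these data.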
